A study of Mus musculus with 2 samples.

Results

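Aminoacyl-tRNA synthetases are the enzymes that attach each amino acid to its tRNA, the step that supplies the ribosome with building blocks. Mammalian cells keep nuclear-encoded sets for the cytosol and for the mitochondrial matrix, and most amino acids have a separate gene for each compartment. The genes described here are 37 synthetase genes, 21 that serve the cytosol and 16 that serve mitochondria, chosen by gene symbol among the 37072 named targets of a mouse expression array. By convention a symbol that ends in 2 marks the mitochondrial enzyme. Tarsl2 is a cytosolic threonyl enzyme in spite of its name, and Gars and Kars make both the cytosolic and the mitochondrial form and were counted as cytosolic.

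Total RNA of mouse cells was hybridised to 2 arrays, 1 for cells given the agent S180 and 1 for control cells given DMSO, a solvent. The labels give no cell type, dose, exposure time, strain, genotype or identity of S180. Each group is a single array, so the differences have no replicates, no test was run, and precision is limited by that number. Differences are S180 minus DMSO in log2 processed signal, after each array's 75th percentile was subtracted, and each gene is represented by its brightest probe that was well above background on both arrays.

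All 37 synthetase genes were measured in this sense, among 20781 measured genes. They were covered by 90 probes, of which 46 of 49 cytosolic and 39 of 41 mitochondrial probes were well above background on both arrays. The error attached to single differences is the SD of a difference between single spots of replicated probes, which was 0.042 (log2) for bright signals (262 probes), 0.073 for middle signals (6 probes) and 0.27 for dim signals (10 probes). This error leaves out all variation between cultures and between RNA samples. Of 59305 non-control spots, the share well above background was 61.9% for S180 and 60.6% for DMSO, and 0 were saturated. Slide and scan were shared by both arrays. All 6 melanocyte markers examined (Tyr, Dct, Pmel, Mlana, Mitf and Tyrp1) were measured, with processed signals from 5683.3 to 233546.0 on the DMSO array. Their summed signal, before scaling, was 770283.9 in S180 and 828821.9 in DMSO. Of the other lists 5 of 6 leukocyte, 4 of 5 fibroblast, 2 of 4 epithelial, 2 of 3 neuronal and 1 of 4 endothelial markers were measured. The summed signal of the fibroblast markers was 1385.2 in S180 and 2386.5 in DMSO, that of the leukocyte markers 6700.0 and 7363.2, that of the epithelial markers 40.9 and 77.3, that of the neuronal markers 9233.9 and 9655.6, and that of Pecam1, the endothelial marker measured, 78.1 and 112.7. Thy1 (fibroblast), Adgre1 (leukocyte), Krt8 and Krt18 (epithelial), Rbfox3 (neuronal) and Cdh5, Kdr and Tek (endothelial) were not well above background on both arrays. After scaling, the median difference was 0.15 for melanocyte, 0.23 for neuronal and 0.06 for leukocyte markers, and -0.43 for fibroblast, -0.69 for epithelial and -0.25 for the endothelial marker. The part of other cells in the synthetase signals was not tested, and in such bulk RNA fewer cells of a type and less RNA per cell cannot be told apart.

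The 2 classes lay on opposite sides of the median gene in S180. The median difference of the 21 cytosolic genes was 0.12, that of the 16 mitochondrial genes -0.18, and that of all measured genes 0.00 (log2). Relative to the median gene, 17 of 21 cytosolic genes were higher in S180 and 13 of 16 mitochondrial genes were lower. The gap between the class medians was 0.30 (log2), and scaling by 1 factor per array cannot change it. Whether the cytosolic median lay above or below 0 depended on the scaling, whereas the mitochondrial median was below 0 under each scaling compared. On the scale of 8 spike-in transcripts the median of all measured genes was -0.35, the cytosolic median -0.23 and the mitochondrial median -0.54, so that the cytosolic median was above the median gene but below 0 on that scale, where 65.3% of all measured genes were 1.2-fold lower and 2.68% higher. All directions below are therefore relative to the median gene.

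At a threshold of 1.2-fold, 7 of 21 cytosolic genes were higher in S180, against 15.1% of all measured genes, and 1 was lower, against 11.8%. No mitochondrial gene was 1.2-fold higher and 1 of 16 was lower, a share below the background. At 1.1-fold, 11 of 16 mitochondrial genes were lower against 25% of all genes, and 0 were higher against 28.3%. At the same threshold 10 of 21 cytosolic genes were higher and 1 was lower. No synthetase gene of either class reached 1.5-fold, which 3.08% of all genes did upwards and 1.71% downwards. Most of these differences, although small, were larger than the spread of replicate spots. The difference from the median gene exceeded 2 spot SDs upwards in 13 cytosolic genes and downwards in none, whereas it did so downwards in 11 mitochondrial genes and upwards in none. The share of all measured genes past 2 spot SDs was not computed. The counts therefore describe spot error only and do not set the synthetases apart from other genes. These counts depend on the reference. With the median of genes of like signal removed, the mitochondrial gene Fars2 (0.11) exceeded 2 spot SDs upwards. Wars (0.07), Lars2 (-0.07) and Pars2 (-0.12) then fell within 2 spot SDs.

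**Figure D1:**
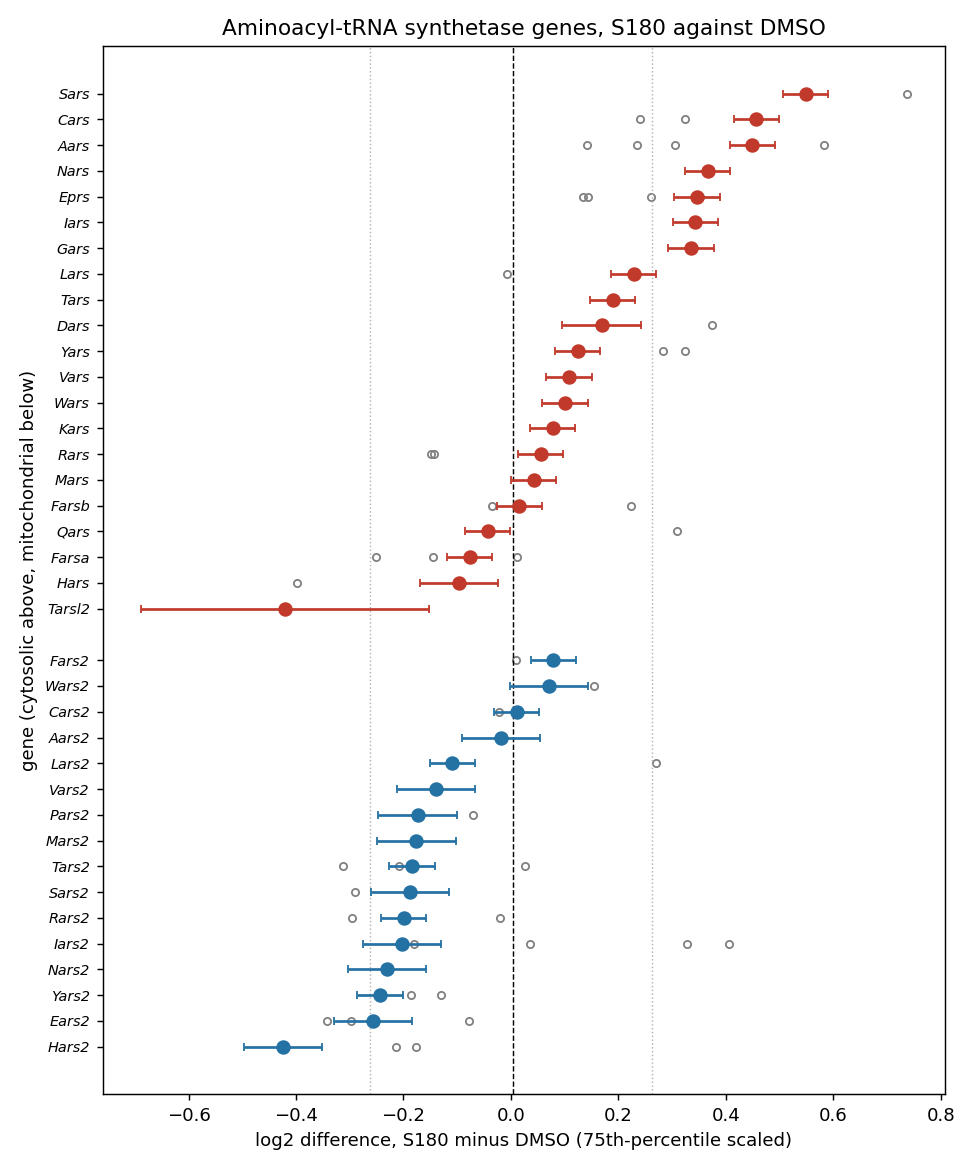
Log2 difference (S180 minus DMSO, 75th-percentile scaled) of each synthetase gene, cytosolic in red and mitochondrial in blue. Filled points are the brightest measured probe with the SD of a difference between single spots, open circles the other measured probes, the dashed line the median of all measured genes and the dotted lines 1.2-fold. Cytosolic genes run from -0.42 (Tarsl2) to 0.55 (Sars) and mitochondrial genes from -0.43 (Hars2) to 0.08 (Fars2).

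Sars, which charges serine tRNA and also the tRNA of selenocysteine, had the largest difference of the cytosolic class. Its processed signal was 32449.7 in S180 and 26955.8 in DMSO, or 5.72 and 5.17 on the scaled log2 axis, a difference of 0.55 or 1.46-fold. Its other probe gave 0.74, but at dim signals of 30.3 in S180 and 22.1 in DMSO, where the spot SD was 0.27. Cars, the cysteinyl enzyme, had signals of 16588.3 in S180 and 14690.5 in DMSO, a difference of 0.46, and its 3 probes all lay above 0, between 0.24 and 0.46. Aars, the alanyl enzyme, had signals of 18584.0 and 16536.0, a difference of 0.45, and its 5 probes ranged from 0.14 to 0.58. Its other probes were far dimmer than the brightest, with DMSO signals from 18.2 to 301.5. These 3 genes stood at the 96.3, 94.2 and 94.0 percentile of the differences of all measured genes.

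A second tier of 4 genes lay close together. Nars, the asparaginyl enzyme, had signals of 10922.4 in S180 and 10293.8 in DMSO and a difference of 0.37 on its single probe. Eprs, a fusion enzyme that charges both glutamate and proline, had signals of 28855.1 and 27579.4 and a difference of 0.35, with 5 probes between 0.13 and 0.35. Iars, the isoleucyl enzyme, had signals of 14858.1 and 14235.9 and a difference of 0.34. Gars, the glycyl enzyme of both compartments, had signals of 101466.7 and 97727.4 and a difference of 0.34, which came to 0.20 once the median of genes of like signal was removed. Neighbours in this tier differed by less than the spot SD of 0.042. All 7 genes named so far had a higher processed signal in S180 even before scaling. After it they were past 1.2-fold, and no other synthetase gene was higher by that much. Gars lost the 1.2-fold call with quantile normalization, where it stood at 0.16, in the authors' deposited table (0.15) and with cyclic loess (0.26). This left 6 genes in each, against 13.2%, 13.2% and 13.6% of all measured genes, in that order.

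The next 6 cytosolic genes lay between 0.23 and 0.10. Lars, the leucyl enzyme that also serves as a leucine sensor for mTORC1, had signals of 17081.3 in S180 and 17716.7 in DMSO and a scaled difference of 0.23, but its second probe gave -0.01. Tars, the main threonyl enzyme, stood at 0.19, and Dars, the aspartyl enzyme, at 0.17 with 0.37 from a second probe of nearly equal signal. Yars, the tyrosyl enzyme, stood at 0.12, with 0.28 and 0.32 from its other probes, Vars, the valyl enzyme, at 0.11 and Wars, the tryptophanyl enzyme known to be induced by interferon gamma, at 0.10. All 6 were higher than the median gene under each of the 7 scalings and corrections compared gene by gene, although short of 1.2-fold. Relative to the median gene, the 75th percentile, no scaling and spike-ins give the same values by construction. The deposited table nearly repeats quantile normalization, so fewer than 7 of these are separate checks, here and for the genes below.

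By their brightest probes, the remaining 8 cytosolic genes lay within 2 spot SDs of the median gene. Kars, the lysyl enzyme of both compartments, differed by 0.08, Rars (arginyl) by 0.06, Mars (methionyl) by 0.04 and Farsb, the beta subunit of the phenylalanyl enzyme, by 0.02. These 4 fell on either side of the median gene depending on the scaling, and the other 2 probes of Rars gave -0.14 and -0.15. Qars (glutaminyl) lay at -0.04, with 0.31 from its dimmer probe. Farsa, the catalytic alpha subunit of the phenylalanyl enzyme, lay at -0.08, with its other probes from -0.25 to 0.01, and Hars (histidyl) at -0.10, with -0.40 from its dimmer probe. Tarsl2 was the lowest at -0.42, with a processed signal of 116.7 in S180 and 189.8 in DMSO. It is the dimmest member of the group, with 1 of 4 probes well above background and a spot SD of 0.27 at that signal, so its difference from the median gene is under 2 spot SDs. Both subunits of the phenylalanyl enzyme, which works as a tetramer of 2 alpha and 2 beta chains, were near the median gene by their brightest probes.

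**Figure D2:**
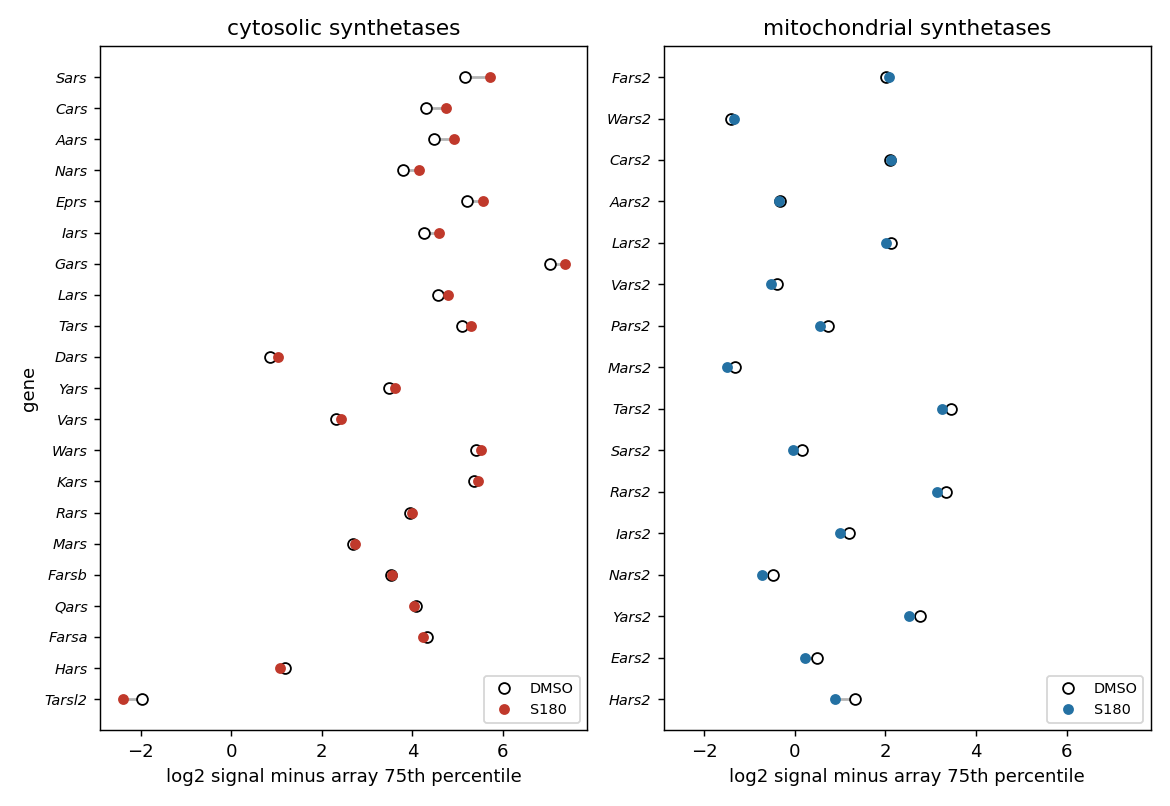
Scaled log2 signal (log2 processed signal minus the array's 75th percentile) of each gene's brightest measured probe on the DMSO array (open points) and the S180 array (filled points), for cytosolic genes on the left and mitochondrial genes on the right. Signals of different probes are not comparable as RNA levels. Sars moves from 5.17 to 5.72 and Hars2 from 1.32 to 0.90.

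Among mitochondrial synthetases Hars2, the histidyl enzyme, had the largest difference. Its signal was 1145.7 in S180 and 1869.1 in DMSO, a difference of -0.43 or 1.34-fold lower, and its 3 probes all lay below 0, from -0.43 to -0.18. Ears2, the glutamyl enzyme that in mitochondria also charges the glutamine tRNA with glutamate, had signals of 723.3 and 1050.5, a difference of -0.26, with 4 of 4 probes below 0. Yars2, the tyrosyl enzyme, had signals of 3513.1 and 5054.7, a difference of -0.24, with 3 of 3 probes below 0. Nars2, the asparaginyl enzyme, stood at -0.23 on its single probe. All 4 were lower than the median gene under each scaling compared.

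A dense group of 7 genes lay between -0.20 and -0.14. These were Iars2 (isoleucyl) and Rars2 (arginyl) at -0.20 each, Sars2 (seryl) at -0.19, Tars2 (threonyl) and Mars2 (methionyl) at -0.18 each, Pars2 (prolyl) at -0.17 and Vars2 (valyl) at -0.14. Rars2 had signals of 5451.9 in S180 and 7606.7 in DMSO, and all 4 of its measured probes lay below 0. Tars2 had signals of 5874.9 and 8110.6, with 3 of 4 probes below 0. Iars2 was less uniform, since the 3 dimmest of its 5 probes lay above 0, up to 0.41. Neighbours within this group differed by less than their spot SDs.

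Lars2, the leucyl enzyme of mitochondria, stood at -0.11, but its dimmer probe gave 0.27. The last 4 genes, Aars2 (alanyl) at -0.02, Cars2 (cysteinyl) at 0.01, Wars2 (tryptophanyl) at 0.07 and Fars2 (phenylalanyl) at 0.08, lay within 2 spot SDs of the median gene, as did Vars2. Of these 4, Wars2 was above the median gene under each scaling compared, and Aars2, Cars2 and Fars2 changed sides.

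Over all measured probes the pattern was like that of the brightest probes, with 35 of 46 cytosolic probes above 0 and 29 of 39 mitochondrial probes below 0. Of all 20781 measured genes, 10583 lay above 0 and 10198 below, and the share over all probes was not computed. The probe counts include the brightest probes and hold several probes of some genes, so they are no separate evidence. The median over probes was 0.16 for the cytosolic class and -0.18 for the mitochondrial class. Of the genes with 2 or more measured probes, all probes had the same sign in 8 of 13 cytosolic and 8 of 12 mitochondrial genes.

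Where both compartments have a gene for the same amino acid, the cytosolic member can be set against its mitochondrial counterpart. Among 18 such combinations, over 16 amino acids, the cytosolic gene had the higher difference in 15. The median gap was 0.35 (log2). Serine gave the widest, 0.74 between Sars and Sars2, followed by glutamate at 0.60 (Eprs and Ears2), asparagine at 0.60 (Nars and Nars2) and isoleucine at 0.55 (Iars and Iars2). Histidine belonged to the same side, with a gap of 0.33, although both of its genes lay below the median gene. Without regard to amino acid, 13 of 21 cytosolic genes lay above the highest mitochondrial gene and 20 above the mitochondrial median. The count of pairs therefore largely restates the difference between the classes.

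The 3 exceptions were phenylalanine, for both Farsa and Farsb against Fars2 (-0.16 and -0.06), and the pair of Tarsl2 and Tars2 (-0.24). Tryptophan showed no gap beyond the spot error, at 0.03. The gaps of Farsb and of Tarsl2 were also within the summed spot SDs of their genes. The combinations share genes, since Eprs, Fars2 and Tars2 each enter 2 of them. Hars and Hars2 are the only members that lie next to each other in the RefSeq gene order, on chromosome 18, with their probes on opposite strands, and they stood at -0.10 and -0.43.

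**Figure D3:**
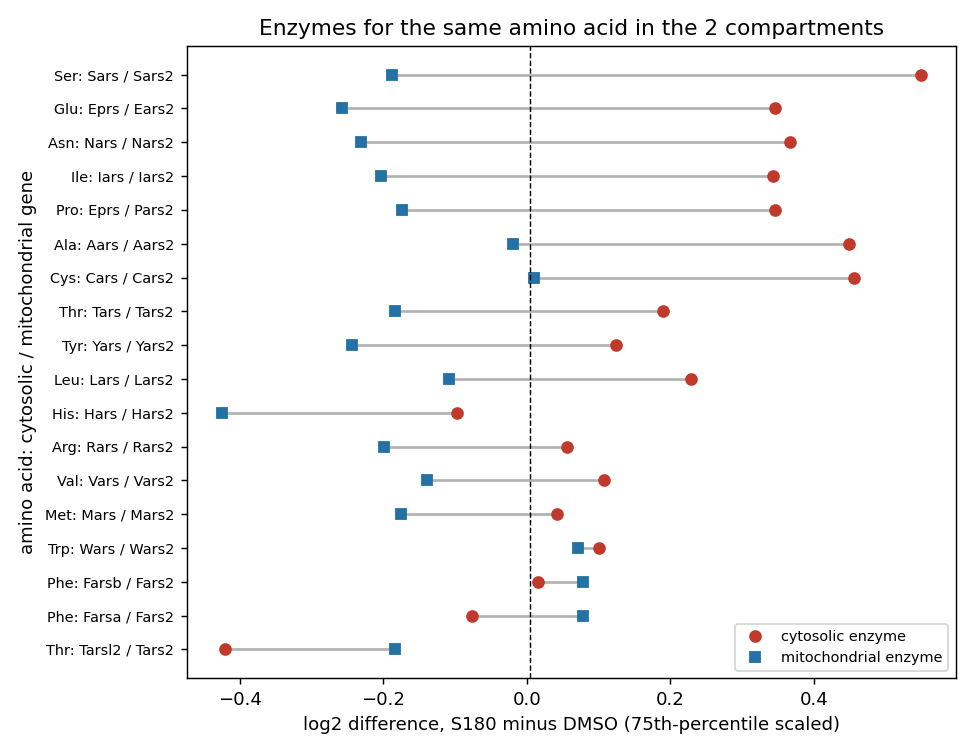
Log2 difference (S180 minus DMSO, 75th-percentile scaled) of the cytosolic gene (red circle) and the mitochondrial gene (blue square) for the same amino acid, with the dashed line at the median of all measured genes. The red point lies to the right of the blue in 15 of 18 rows, and to its left for Farsb, Farsa and Tarsl2.

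The classes also differed in signal. The representative probes of the cytosolic genes had DMSO signals from 189.8 to 97727.4, with 18 of 21 genes in the brightest of 3 equal groups of measured genes, and those of the mitochondrial genes from 280.0 to 8110.6, with 6 of 16 in that group. The median difference of all genes was 0.04 in the dim, -0.03 in the middle and 0.01 in the bright group. With the median of genes of like signal removed, the class medians were 0.14 and -0.16 and their gap 0.30, as large as without it. Only 4 cytosolic genes (Dars, Hars, Mars and Vars) had DMSO signals inside the mitochondrial range, with a median difference of 0.08 and a range of -0.10 to 0.17.

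**Figure D4:**
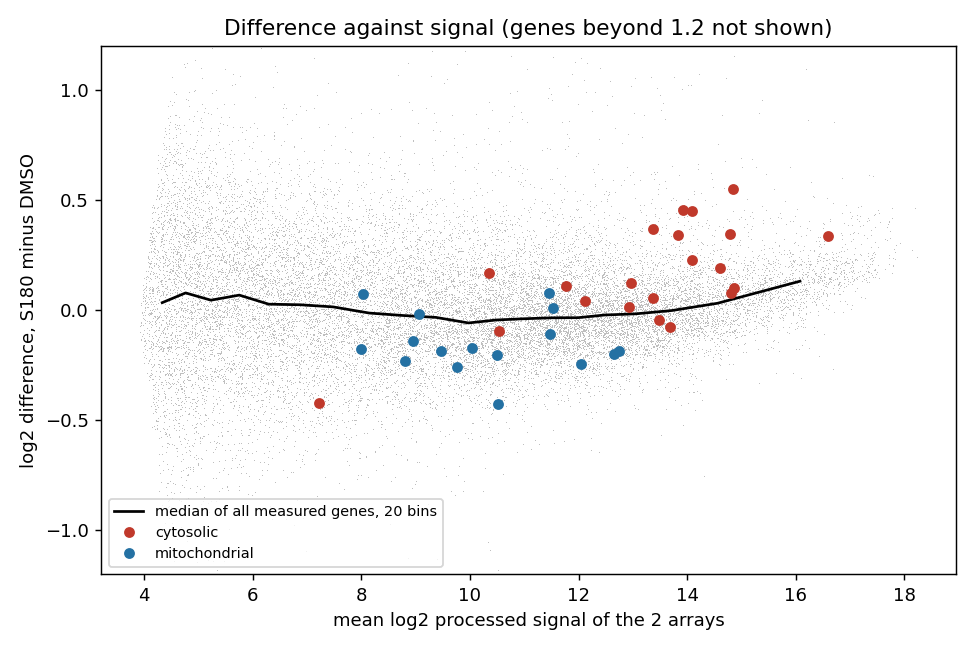
Log2 difference (S180 minus DMSO) against the mean log2 processed signal of the 2 arrays, for all measured genes (grey), cytosolic synthetases (red) and mitochondrial synthetases (blue). The black line, the median of all measured genes in 20 bins of signal, departs most from 0 in the brightest bin, where it is 0.13, and most red points lie above it and most blue points below it.

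The cytosolic class was not uniform, and its members were divided by whether they are known to respond to ATF4. The division was made with earlier results of these data known, so its counts are a description and no independent evidence. ATF4 is a transcription factor translated preferentially when initiation factor eIF2 is phosphorylated, and it activates genes of amino acid supply, among them many cytosolic synthetases. The 12 cytosolic genes assigned to this response from general knowledge (Aars, Cars, Eprs, Gars, Iars, Lars, Mars, Nars, Sars, Tars, Wars and Yars) had a median difference of 0.34, and 12 of 12 lay above the median gene, 7 of them past 1.2-fold upwards against 15.1% of all measured genes. The other 9 (Dars, Farsa, Farsb, Hars, Kars, Qars, Rars, Tarsl2 and Vars) had a median of 0.02, with 5 above and 4 below the median gene and 0 past 1.2-fold upwards. The subset was not separate from the others, since Mars, Wars and Yars (0.04, 0.10 and 0.12) overlapped with Dars and Vars (0.17 and 0.11). On the spike-in scale the median of the subset was -0.02.

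The 12 listed genes of the ATF4 response outside the synthetases, likewise chosen with results known, had a median of 0.66. All 12 lay above the median gene and 11 were past 1.2-fold upwards, against 15.1% of all measured genes. Atf4 itself differed by 0.60, Asns, the asparagine synthetase, by 0.52 and Psat1, of serine synthesis, by 0.42. Phgdh, also of serine synthesis, was the lowest of the list at 0.20. Cars and Aars, at 0.46 and 0.45, lay between Psat1 and Asns and Sars, at 0.55, above Asns. The highest of the list was Ddit4 at 1.91, followed by the stress effectors Trib3 and Chac1 at 1.82 and 1.41.

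Other divisions of the class showed less. The 8 cytosolic genes of the multisynthetase complex, a cytosolic assembly of several synthetases, had a median of 0.12, as did the 13 genes outside it. Cytosolic genes of the class I catalytic fold had a median of 0.11 (9 genes) and those of class II 0.17 (11 genes), leaving out Eprs, which has both. The corresponding mitochondrial medians were -0.18 in each fold, over 9 and 7 genes.

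The promoters of the cytosolic genes were examined for the element that ATF4 and C/EBP proteins are known to bind, since these genes moved in part together. The letters TGATGNAA were searched on both strands of RefSeq windows (build GRCm38.p6) from 250 bases before to 50 after a gene's start, which were matched for 28 of the 37 members. A match was found in 5 of 14 cytosolic genes and 0 of 14 mitochondrial genes, against 4.51% of 27025 genes and 3.97% of 32851 windows. For each of the 5 genes the 30 bases around the match nearest to the start are shown on the gene's strand, 5′ to 3′, with the match in capitals; the reverse complement of the motif is TTNCATCA.
Aars, chr8:111033840-111033869, plus strand, match at 10 to 17 from the start: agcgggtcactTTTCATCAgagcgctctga
Gars, chr6:55037960-55037989, plus strand, match at -30 to -23 from the start: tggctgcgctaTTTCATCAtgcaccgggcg
Iars, chr13:49682126-49682155, plus strand, match at 8 to 15 from the start: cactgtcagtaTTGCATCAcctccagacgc
Tars, chr15:11399655-11399684, minus strand, match at -15 to -8 from the start: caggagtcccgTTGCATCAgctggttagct
Yars, chr4:129189895-129189924, plus strand, match at 4 to 11 from the start: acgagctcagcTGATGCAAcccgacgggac

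All 5 genes with a match belong to the ATF4 subset, and their differences were 0.45 (Aars), 0.34 (Gars), 0.34 (Iars), 0.19 (Tars) and 0.12 (Yars). Of the 12 subset genes 8 had a window, and Sars, Eprs and Mars, which differed by 0.55, 0.35 and 0.04, held no match in it. Cars, Lars, Nars and Wars of the subset were not searched, nor were Hars, Rars and Vars outside it or Hars2 and Pars2 of the mitochondrial class. A match is a description of the letters and shows no binding. The subset and the motif were both taken from general knowledge of ATF4, with results known. Their overlap is therefore no independent evidence.

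Partners of tRNA charging and elongation were set beside the synthetases. Of the 3 scaffold proteins of the multisynthetase complex, Aimp2 differed by 0.23, Aimp1 by 0.01 and Eef1e1 by -0.35. All 5 cytosolic elongation factor genes were above the median gene, with a median of 0.18. Eef1b2, a subunit of the exchange factor that recharges eEF1A, differed by 0.23, and Eef2, the translocase, by 0.26. None of the 5 reached 1.2-fold, against 15.1% of all measured genes that were higher. All 5 lay in the brightest of the 20 signal bins, where the median difference of all genes was 0.13.

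The mitochondrial partners lay on the side of the mitochondrial synthetases, although 3 of the 4 elongation factor genes were near the median gene. Gatb, Gatc and Qrsl1 encode the amidotransferase that converts glutamate on the mitochondrial glutamine tRNA into glutamine, the step after Ears2, and Mtfmt formylates the initiator methionine, the step after Mars2. All 4 were below the median gene, with a median of -0.26. Gatc and Mtfmt, at -0.29 each, were past 1.2-fold, against 11.8% of all measured genes that were lower. Gatc had a signal of 270.6 in S180 and 402.4 in DMSO, and Mtfmt 2691.9 and 4002.7. The 4 mitochondrial elongation factor genes were below the median gene too, with Tsfm, the exchange factor of Tufm, at -0.28. The other 3 lay between -0.07 and -0.05, each within 2 spot SDs of the median gene.

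The lists that do not belong to 1 compartment were mixed. Of the 8 genes of tRNA export and maturation 3 were above and 5 below the median gene. Xpot, the exporter of tRNA from the nucleus, differed by 0.35, and Elac2, which trims the 3′ ends of nuclear and mitochondrial tRNAs, by -0.33. The 4 editing genes ranged from -0.23 (Dtd2, a deacylase of mischarged tRNA) to 0.19 (Prorsd1). Of the 4 genes that make or use selenocysteine tRNA, the kinase gene Pstk stood at -0.35, Secisbp2 at -0.30, Sepsecs at -0.21 and Eefsec at 0.05. The first 2 were past 1.2-fold, against 11.8% of all measured genes that were lower. Sars, which begins that pathway, stood by contrast at the opposite end.

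**Figure D5:**
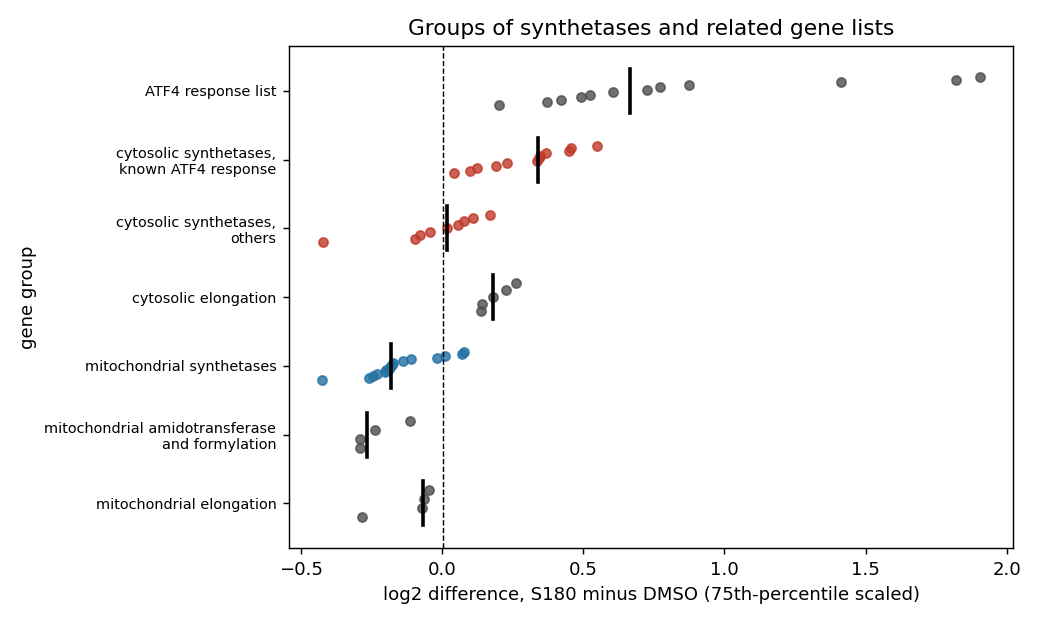
Log2 difference (S180 minus DMSO, 75th-percentile scaled) of single genes in each group, with a bar at the group's median and the dashed line at the median of all measured genes. The ATF4 response list has a median of 0.66, the cytosolic synthetases with and without a known ATF4 response 0.34 and 0.02, and the mitochondrial synthetases -0.18.

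The brightest probes lie as follows on build mm9, as the files give them. That of Sars lies on chromosome 3 from 108229539 to 108229598, that of Cars on chromosome 7 from 150743615 to 150743674 and that of Aars on chromosome 8 from 113579376 to 113579434. That of Hars2 lies on chromosome 18 from 36951466 to 36951525 and that of Ears2 on chromosome 7 from 129182360 to 129182419. Their place relative to exons was not analysed here.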

How the data were processed

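Total RNA was amplified and labelled with Cy3, per the labels' protocols, and read on 1 Agilent mouse array per sample, per the file headers. The deposited scanner tables hold spot intensities from Agilent Feature Extraction 10.7.1.1, background-subtracted and detrended within each array but not normalized between arrays, per the file headers. The deposited log2 table does not state how it was made. Quantile-normalised log2 signals matched it within 0.01 for 99.97% of probes in both columns, whose medians were both 5.28, so its scale and direction are settled and no gene centring was applied. It is used here as an alternative only.

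Control spots and outlier-flagged spots (120 and 195) were left out, spots of a probe averaged in log2, and the 75th percentile over probes subtracted (Python 3.11.15, pandas 2.3.3). A gene, by the name in the files, was its probe with the highest mean log2 signal among those well above background on both arrays. Normexp (offset 50), quantile and cyclic loess alternatives used limma 3.58.1. The calculation was tested on simulated data. The members, lists, ATF4 subset and motif were chosen with earlier results of these data known. Every member is named; other genes come from the stated lists. Promoter sequences are from RefSeq (GRCm38.p6). They are shown for 1 match per gene, the nearest to the start; other matches are not reported here.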

Additional observations from a re-analysis of the deposited data

How the results depend on the processing

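No paired analysis was possible because each group holds 1 sample. The gap between the class medians was positive under 15 of 15 alternatives, from 0.27 with normexp to 0.34 in the brightest 50% of genes. Alternatives with like-signal medians removed, with RefSeq mRNA probes only and with Gars and Kars counted as mitochondrial were added after the data were seen. Of the 15 alternatives, the median of measured genes, no scaling and spike-ins only change the factor per array. They moved both classes alike, by construction, and could not change the gap. The deposited table gave a gap of 0.304, as did quantile normalization, which it nearly repeats, so it is no separate check. The alternatives with all probes admitted and with RefSeq mRNA probes only repeated the main gap of 0.305. Each member's brightest probe was already a RefSeq mRNA probe well above background, so these 2 are no separate checks either. Without scaling the medians were -0.16 (cytosolic), -0.46 (mitochondrial) and 0.058 (ATF4 subset), with 1 cytosolic gene 1.2-fold higher, 5 lower and 14 mitochondrial genes lower, against 3.76% of all genes higher and 52.6% lower. On spike-ins they were -0.23, -0.54 and -0.016, with 0 higher, 8 lower and 16 lower, against 2.68% and 65.3% of all genes. The median of the ATF4 subset was 0.244 after quantile normalization, 0.243 from the deposited table, 0.286 with cyclic loess and 0.291 with all probes averaged. Its mean in place of the median was 0.294. Gars, at the middle of the subset under the main scaling, fell from 0.335 to 0.156 (quantile), 0.155 (deposited) and 0.262 (cyclic loess). The cause of this fall, and of the value with all probes averaged, was not tested. Tarsl2, the cytosolic gene that was 1.2-fold lower, was lost with normexp and in the brightest 50% (0 each). At 1.5-fold all counts were 0, and at 1.1-fold 11 mitochondrial genes were lower. Leaving out 1 replicate was not possible. The spot spread was 0.057 with normexp, against 0.067. Signal over background limits Tarsl2 most.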
